A study of Lachancea kluyveri with 16 samples.

Results

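The genes encoding subunits of 2-oxoglutarate (ketoglutarate) dehydrogenase, *KGD1* (SAKL0E08866g) and *KGD2* (SAKL0H15422g), and the gene encoding fumarase, *FUM1* (SAKL0E00946g), were followed in the budding yeast *Lachancea kluyveri*. These 3 genes were chosen by locus tag among 5316 genes with a probe on the array, each had 2 probes, and all 3 were among the 5267 genes tested. Transcripts were measured on 16 single-colour Agilent arrays, with 4 cultures in each of 4 groups and 1 array per culture. The wild type (WT) was strain JYL1897, which carries a *ura3* mutation and is MATa. SEF1-VP16 was strain SkSef1VP16NB10-1, built from JYL1897 and so also *ura3* and MATa, in which the VP16 activation domain is joined to the transcription factor Sef1. It is 1 engineered strain, so the fusion was not examined in a second isolate. Both strains were pregrown at 28 °C, diluted to an optical density of 0.2 into YPD (rich medium with glucose) or YPGly (rich medium with glycerol), and harvested after 5.5 h at 30 °C. The labels number the 4 cultures of a group as repeats, and the study describes its replicates as biological.

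Both enzymes act in the tricarboxylic acid (TCA) cycle in mitochondria. The dehydrogenase complex converts 2-oxoglutarate to succinyl-CoA. Kgd1 is its E1 subunit, which decarboxylates 2-oxoglutarate, and Kgd2 is its E2 subunit, which carries lipoic acid and transfers the succinyl group. The E3 subunit, Lpd1, reoxidises the lipoic acid and also serves pyruvate dehydrogenase and the glycine cleavage system. Fumarase hydrates fumarate to malate later in the cycle, and in *Saccharomyces cerevisiae* a single *FUM1* gene supplies both the mitochondrial and the cytosolic enzyme. In yeasts, TCA cycle genes are known to be expressed more strongly in respiring cells than in cells that ferment glucose. The study assigned Sef1 binding peaks to all 3 genes, and assigned the peak of *KGD2* also to *SLX4*, the gene next to it. No sequence is printed here.

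Values are log2 of the processed signal minus the 75th percentile of the array, so a difference of 1 is a 2-fold difference between arrays. Levels of different probes are not compared, since probes differ in brightness for reasons other than transcript number. A change was called when it was at least 1.5-fold with an adjusted p of 0.05 or less (limma, Benjamini-Hochberg adjustment over the 5267 genes). The share of gene probes well above background lay between 94.5% and 99.95% per array, and the 75th percentile of the signal between 10998 and 24035. All 6 probes of the 3 genes were well above background on all 16 arrays, with none saturated or marked as an outlier, and all their signals came from the low-gain scan, scaled up by the extraction software. Around its group means a typical gene had a residual SD of 0.17 (median over genes, log2 scale), so 4 arrays per group set the precision. In bulk cultures, fewer cells with a transcript and less transcript per cell cannot be told apart.

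The labelled media were hybridised on separate slides (1 each), and the strains in separate array rows of each slide. Medium cannot be told apart from slide, nor strain from array row. Of 8 marker genes of growth on non-fermentable carbon, such as *PCK1* (gluconeogenesis) and *ICL1* (glyoxylate cycle), 7 were called lower on WT arrays labelled YPGly, where 20.5% of all genes were called lower. Their median change was -4.39 on the log2 scale, against 0.15 for all genes. Such genes are known in *S. cerevisiae* to be repressed by glucose, so the direction here is the reverse of the one the medium labels would give. The study describes the cells harvested from both media as early log phase. Whether the labels are exchanged, or the cultures labelled YPD had used up their glucose, was not tested. The media are therefore named only as labelled, and every medium difference below is a difference between labels. *SEF1* itself (SAKL0F12342g), whose probes measure the gene and not the VP16 part, was lower in SEF1-VP16 by less than 1.5-fold and was not called: the log2 change was -0.39 (SE 0.10, adjusted p = 0.0338) where labelled YPD and -0.36 (SE 0.10, adjusted p = 0.0446) where labelled YPGly. Its further probe gave -0.35 (adjusted p = 0.111) and -0.16 (adjusted p = 0.487) in the fit to all probes.

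The first comparison asked what the fusion does to each gene within 1 labelled medium. All 3 genes were called higher in SEF1-VP16 than in WT in both labelled media. The rises lay between 1.71-fold and 2.37-fold, and for each gene the 4 SEF1-VP16 arrays lay above the 4 WT arrays of the same labelled medium. Of all genes tested, 1.48% were called higher where labelled YPD and 1.61% where labelled YPGly, and groups did not overlap in this direction for 4.5% and 15.4% of genes. Only 29 genes, 0.551% of those tested, were called higher in both strain comparisons.

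**Figure D1:**
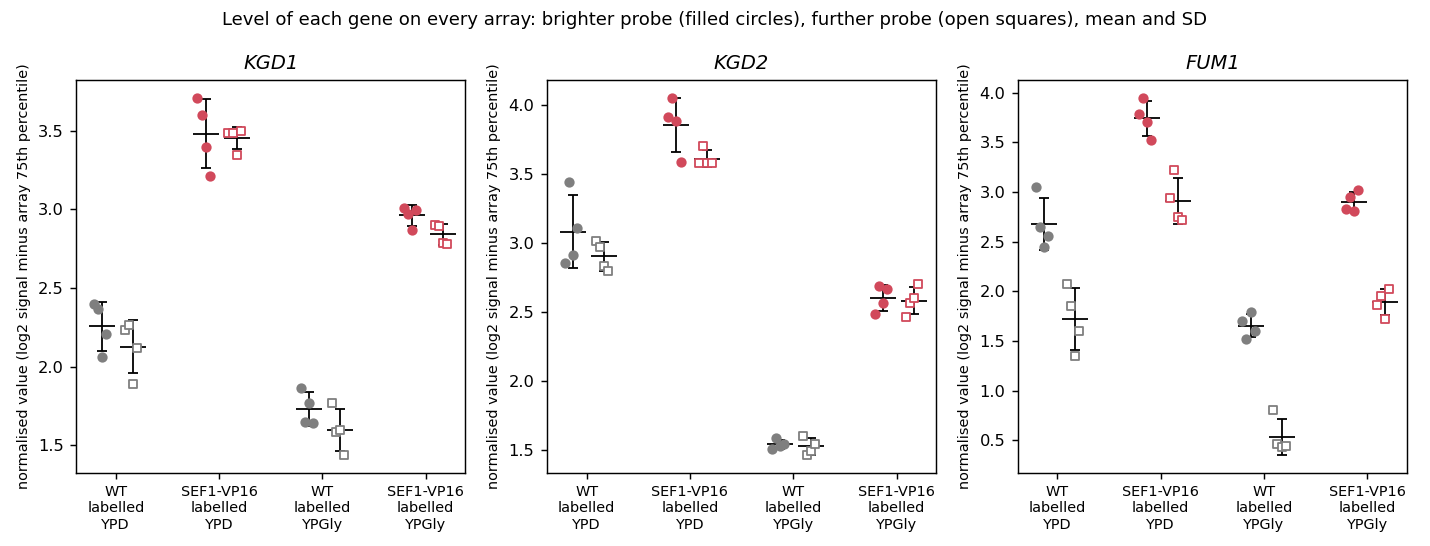
Normalised level (log2 signal minus the 75th percentile of the array, y axis) of KGD1, KGD2 and FUM1 in the 4 groups (x axis). Each point is 1 array, filled circles are the brighter probe and open squares the further probe, and bars give the mean and SD of 4 arrays. SEF1-VP16 arrays (red) lie above WT arrays (grey) of the same labelled medium for every probe, and the arrays labelled YPGly lie below those labelled YPD of the same strain.

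*KGD1*, the E1 subunit gene, stood at 2.40, 2.37, 2.06 and 2.21 on the WT arrays labelled YPD (replicates 1 to 4). On the SEF1-VP16 arrays labelled YPD it stood at 3.71, 3.60, 3.40 and 3.21. The lowest SEF1-VP16 array thus lay well above the highest WT array. The rise was 2.34-fold (95% interval 1.99 to 2.74), a log2 change of 1.22 (SE 0.11, adjusted p = 2.56e-06). On arrays labelled YPGly, WT stood at 1.86, 1.64, 1.77 and 1.64 and SEF1-VP16 at 3.01, 2.97, 2.87 and 3.00. The 4 SEF1-VP16 arrays were close together here (SD 0.06, n = 4). The rise was 2.35-fold (95% interval 2.00 to 2.75), a log2 change of 1.23 (SE 0.11, adjusted p = 3.89e-06). By size of rise *KGD1* held rank 19 of 5267 where labelled YPD and rank 11 where labelled YPGly.

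*KGD2*, the E2 subunit gene, stood at 2.86, 3.45, 2.92 and 3.11 on the WT arrays labelled YPD and at 3.92, 4.05, 3.89 and 3.59 on those of SEF1-VP16. WT replicate 2 and SEF1-VP16 replicate 4 came within 0.14 of each other on the log2 scale, so the groups were separate by a small margin. The rise was 1.71-fold (95% interval 1.43 to 2.04), a log2 change of 0.78 (SE 0.12, adjusted p = 0.000954). On arrays labelled YPGly, WT stood at 1.51, 1.59, 1.53 and 1.55 and SEF1-VP16 at 2.49, 2.69, 2.57 and 2.67. Here the gap between the groups was 0.90 on the log2 scale. The rise was 2.08-fold (95% interval 1.75 to 2.49), a log2 change of 1.06 (SE 0.12, adjusted p = 6.69e-05). *KGD2* held rank 49 where labelled YPD and rank 20 where labelled YPGly.

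*FUM1*, the fumarase gene, stood at 3.05, 2.65, 2.45 and 2.56 on the WT arrays labelled YPD and at 3.79, 3.95, 3.70 and 3.53 on those of SEF1-VP16. WT replicate 1 was the highest of its group and still lay below all SEF1-VP16 arrays. The rise was 2.10-fold (95% interval 1.75 to 2.51), a log2 change of 1.07 (SE 0.12, adjusted p = 4.81e-05). On arrays labelled YPGly, WT stood at 1.70, 1.52, 1.79 and 1.60 and SEF1-VP16 at 2.83, 2.95, 2.81 and 3.02. The groups lay far apart. The rise was 2.37-fold (95% interval 1.99 to 2.84), a log2 change of 1.25 (SE 0.12, adjusted p = 1.38e-05). *FUM1* held rank 27 where labelled YPD and rank 10 where labelled YPGly.

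The calls of *KGD2* and *FUM1* where labelled YPD were lost with the methods' t-test once its p-values were adjusted by Benjamini-Hochberg (adjusted p = 0.165 and adjusted p = 0.0624), while *KGD1* kept its call (adjusted p = 0.028). That test used only the 8 arrays compared and no information from other genes.

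The difference between the strain effects of the 2 labelled media was tested as an interaction. None of the 3 genes passed, while 1.14% of all genes were called in either direction. The strain effect where labelled YPGly exceeded that where labelled YPD by 0.01 on the log2 scale for *KGD1* (95% interval -0.32 to 0.33, adjusted p = 0.988). For *FUM1* the difference was 0.18 (95% interval -0.19 to 0.54, adjusted p = 0.701) and for *KGD2* it was 0.28 (95% interval -0.08 to 0.64, adjusted p = 0.478). The intervals do not show equal effects, since that of *KGD2* reaches 0.64. In the fit to all probes the further probe of *KGD2* gave 0.35 (95% interval 0.11 to 0.58, adjusted p = 0.166). Its interval lay above 0, though the adjusted p did not pass. The further probes of *KGD1* and *FUM1* gave -0.08 and 0.17.

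**Figure D2:**
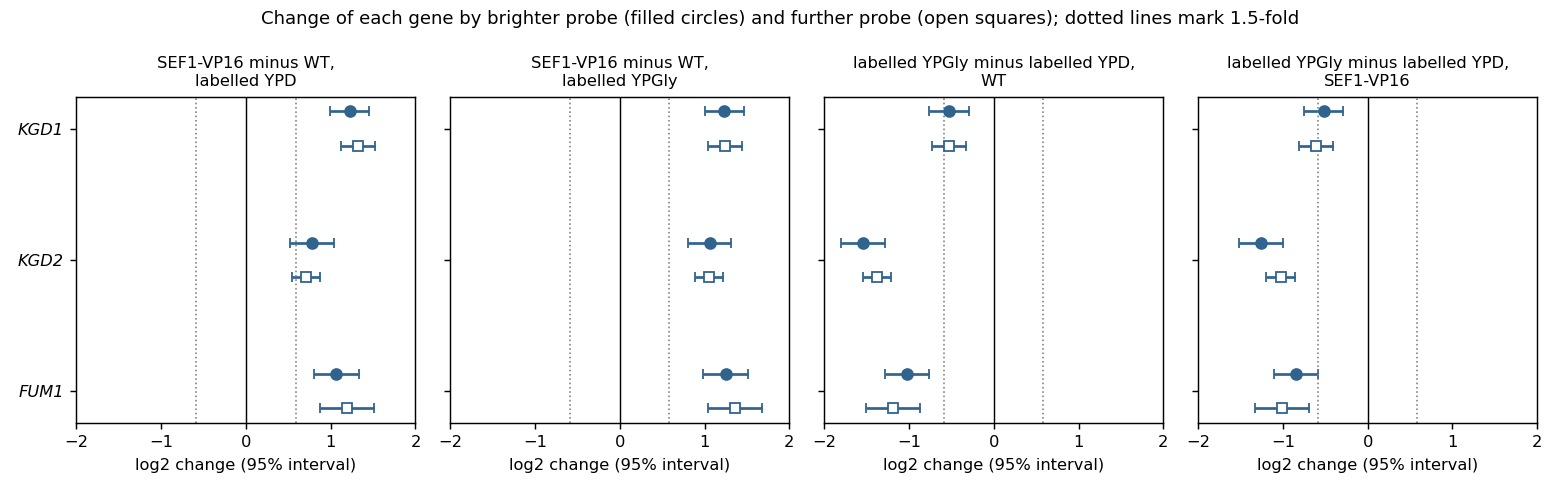
Log2 change (x axis) of KGD1, KGD2 and FUM1 (y axis) in the 2 strain comparisons and the 2 comparisons of labelled media, from the fit to all probes. Circles are the brighter probe, squares the further probe, bars the 95% intervals, and dotted lines mark 1.5-fold. Both probes of each gene lie to the right of 0 in the strain comparisons and to the left of it in the medium comparisons.

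The next comparison set the labelled media against each other within each strain. It shares its arrays with the strain comparisons. *KGD2* and *FUM1* were called lower on arrays labelled YPGly in both strains, while *KGD1* passed the adjusted p but not the 1.5-fold minimum. Adjusted p passed in this direction for 29.6% of genes in WT and 29.3% in SEF1-VP16. Over all genes 20.5% were called lower in WT and 19.9% in SEF1-VP16, so a call in this direction was common. The median change of all genes was 0.15 on the log2 scale in WT and 0.13 in SEF1-VP16, and changes are also given relative to it.

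*KGD2* was 2.91-fold lower in WT where labelled YPGly (95% interval 2.44 to 3.47, log2 change -1.54, SE 0.12, adjusted p = 8.90e-09). In SEF1-VP16 it was 2.39-fold lower (95% interval 2.00 to 2.85, log2 change -1.26, SE 0.12, adjusted p = 1.05e-07). Relative to the median gene these changes were -1.69 and -1.39. *FUM1* was 2.03-fold lower in WT (95% interval 1.70 to 2.43, log2 change -1.02, SE 0.12, adjusted p = 1.33e-06) and 1.79-fold lower in SEF1-VP16 (95% interval 1.5 to 2.15, log2 change -0.84, SE 0.12, adjusted p = 1.21e-05). Relative to the median gene these were -1.17 and -0.97.

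*KGD1* was 1.44-fold lower in WT (95% interval 1.23 to 1.69, log2 change -0.53, SE 0.11, adjusted p = 0.000366) and 1.43-fold lower in SEF1-VP16 (95% interval 1.22 to 1.68, log2 change -0.52, SE 0.11, adjusted p = 0.000421). Relative to the median gene these were -0.68 and -0.65. Its groups did not overlap in either strain, as for 25.8% of genes in this direction in WT and 27.1% in SEF1-VP16. The missing call rested on the fold minimum: with each array centred on its median the changes were -0.64 and -0.59, which passed it. Without WT YPD replicate 3 the change in WT was -0.59, and without SEF1-VP16 YPD replicate 4 that in SEF1-VP16 was -0.61, both past the minimum.

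Across the 4 groups, all 3 genes were highest in SEF1-VP16 labelled YPD and lowest in WT labelled YPGly, and they differed in the order of the other groups. *KGD1* had means of 3.48 ± 0.22, 2.96 ± 0.06, 2.26 ± 0.16 and 1.73 ± 0.11 (SD, n = 4 each) in SEF1-VP16 labelled YPD, SEF1-VP16 labelled YPGly, WT labelled YPD and WT labelled YPGly. No neighbours in that order overlapped. *KGD2* had means of 3.86 ± 0.20, 3.08 ± 0.26, 2.60 ± 0.09 and 1.54 ± 0.03 (SD, n = 4 each), but in the order SEF1-VP16 labelled YPD, WT labelled YPD, SEF1-VP16 labelled YPGly and WT labelled YPGly. Again no neighbours overlapped, so for *KGD2* every array labelled YPD lay above every array labelled YPGly, whichever the strain. *FUM1* had means of 3.74 ± 0.18, 2.90 ± 0.10, 2.68 ± 0.26 and 1.65 ± 0.11 (SD, n = 4 each) in the same order of groups as *KGD1*. SEF1-VP16 labelled YPGly and WT labelled YPD overlapped for *FUM1*, since WT YPD replicate 1 at 3.05 lay above all SEF1-VP16 arrays labelled YPGly.

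Whether the genes changed by unequal amounts was tested on the difference of their log2 values within each array, with an exact two-sided permutation test over the 8 arrays compared. The smallest p this design allows is 0.0286. For the strain effect, 6 tests were made and none passed. The rise of *KGD1* where labelled YPD exceeded that of *KGD2* by 0.45 on the log2 scale (pooled SD 0.20, n = 4 per group), with an exact permutation p = 0.0571 and an adjusted p of 0.171. The 16 differences between a SEF1-VP16 and a WT array ran from -0.02 to 0.87, a range that covers the true difference with 97.1% confidence. Where labelled YPGly the excess was 0.17 (range -0.07 to 0.46, exact permutation p = 0.143, adjusted p = 0.24).

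*KGD1* rose more than *FUM1* by 0.16 where labelled YPD (range -0.07 to 0.58, exact permutation p = 0.171, adjusted p = 0.24). Where labelled YPGly the difference was -0.016 (range -0.18 to 0.20, exact permutation p = 0.857, adjusted p = 0.857). *KGD2* against *FUM1* gave -0.29 where labelled YPD (range -0.74 to 0.37, exact permutation p = 0.2, adjusted p = 0.24) and -0.19 where labelled YPGly (range -0.41 to 0.01, exact permutation p = 0.0571, adjusted p = 0.171). With the brighter probes these data thus did not separate the strain effects of the 3 genes, and the ranges still allow differences of that size. With the further probes the strains did not overlap where labelled YPD for *KGD1* minus *KGD2* and for *KGD2* minus *FUM1*. They overlapped in the other comparisons, so too few separated for an adjusted p to pass. The further probes rose where labelled YPD by 1.33 for *KGD1*, 0.71 for *KGD2* and 1.19 for *FUM1*.

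**Figure D3:**
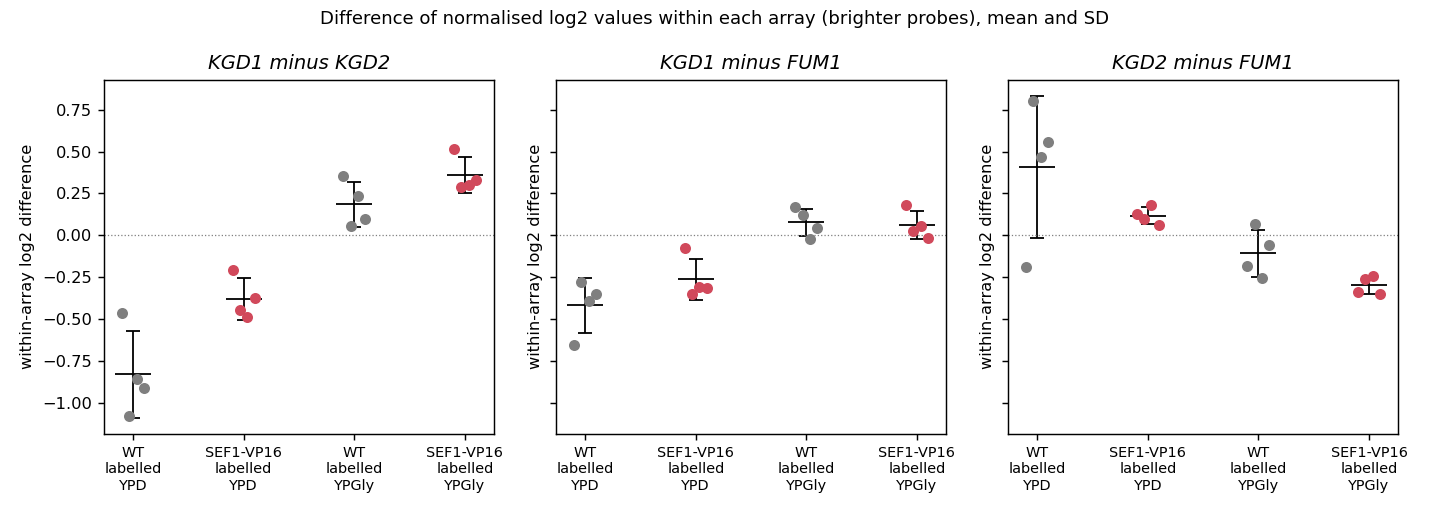
Difference of the normalised log2 values of 2 genes within each array (y axis) in the 4 groups (x axis), for the 3 pairs of genes and the brighter probes. Points are arrays and bars give the mean and SD of 4 arrays. Strains (grey WT, red SEF1-VP16) overlap within a labelled medium in every panel, while the difference of KGD1 and KGD2 is higher on all arrays labelled YPGly than on all arrays labelled YPD.

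The same test was made for the labelled media, a choice made after the values were seen. Within WT the *KGD1* minus *KGD2* difference was -0.47, -1.08, -0.85 and -0.91 on arrays labelled YPD and 0.35, 0.05, 0.23 and 0.10 on arrays labelled YPGly. *KGD2* thus fell more than *KGD1* between the labelled media by 1.01 on the log2 scale (2.02-fold). In SEF1-VP16 the difference was -0.20, -0.45, -0.49 and -0.37 where labelled YPD and 0.52, 0.29, 0.30 and 0.33 where labelled YPGly, an excess of 0.74 (1.67-fold). *FUM1* also fell more than *KGD1*, by 0.49 in WT and 0.32 in SEF1-VP16. Each of these 4 had the smallest exact permutation p possible, 0.0286, and an adjusted p of 0.0343 over the 6 tests.

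*KGD2* fell more than *FUM1* by 0.41 in SEF1-VP16 (exact permutation p = 0.0286, adjusted p = 0.0343), and the difference in WT was -0.52 (exact permutation p = 0.114, adjusted p = 0.114). With the dimmer probe of each gene no adjusted p passed, and in this design at least 4 of the 6 tests must reach the smallest p for any to pass. Both *KGD1* minus *KGD2* differences (0.85 in WT and 0.42 in SEF1-VP16) and the *KGD1* minus *FUM1* difference in WT (0.65) still separated the labelled media completely, with the smallest exact permutation p of 0.0286 and an adjusted p of 0.0571 each. The *KGD1* minus *FUM1* difference in SEF1-VP16 was 0.40 with overlapping groups (exact permutation p = 0.0571, adjusted p = 0.0857). The *KGD2* minus *FUM1* difference in SEF1-VP16, by contrast, shrank from -0.41 to -0.013 (exact permutation p = 0.857, adjusted p = 0.857).

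Both probes of each gene gave the same direction in every strain and medium comparison, and over the 16 arrays they correlated at r = 0.988 for *KGD1*, 0.983 for *KGD2* and 0.991 for *FUM1*. In the fit to all 10497 probes tested, all 6 were called higher in SEF1-VP16 in both labelled media, where 1.47% and 1.42% of probes were. For *KGD1* the further probe rose by 1.33 and 1.24 on the log2 scale where labelled YPD and YPGly, against 1.22 and 1.23 for the brighter probe. For *KGD2* it rose by 0.71 and 1.05, against 0.78 and 1.06. For *FUM1* it rose by 1.19 and 1.36, against 1.07 and 1.25. The probes differed most for *KGD2* between labelled media in SEF1-VP16, where the changes were -1.03 by the further and -1.26 by the brighter probe. The further probe of *KGD1* was called lower in SEF1-VP16 where labelled YPGly (-0.61, adjusted p = 2.58e-05), where its brighter probe (-0.52) was not and 19.9% of all probes were called lower.

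Among 11 genes of adjoining steps of the cycle, 7 were called higher in SEF1-VP16 where labelled YPD (1.48% of all genes were), none was called lower (0.646%), and the median log2 change was 0.81 against 0.02 for all genes. Where labelled YPGly 8 were called higher (1.61% of all genes) and none lower (0.684%), with a median of 0.93 against 0.01. *IDH1* and *IDH2*, the subunits of isocitrate dehydrogenase, which makes 2-oxoglutarate, rose by 1.32 and 1.58 where labelled YPD and by 1.25 and 1.67 where labelled YPGly. *MDH1*, the mitochondrial malate dehydrogenase gene that uses the product of fumarase, rose by 2.02 and 1.29. *YMR31*, whose *S. cerevisiae* counterpart Kgd4 anchors E3 in the dehydrogenase complex, rose by 1.25 and 0.75. Of the succinate dehydrogenase genes, whose enzyme makes fumarate, *SDH1*, *SDH3* and *SDH4* were called in both labelled media (0.71 to 1.55). *SDH2* was called where labelled YPGly (0.93) and was at 0.55 (adjusted p = 0.00996, under 1.5-fold) where labelled YPD. *IDP1*, *IDP3*, *MDH2* and *MDH3*, further isocitrate and malate dehydrogenase genes, were not among these 11. Where labelled YPD and YPGly, *IDP1* was at 0.19 and 0.31, *MDH2* at -0.09 and -0.04 and *MDH3* at -0.09 and -0.03, none called. *IDP3* was at 0.57 (adjusted p = 0.0654) where labelled YPD and was called higher where labelled YPGly (1.09, adjusted p = 0.00133).

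The genes without a call among the adjoining steps included the third subunit of the dehydrogenase itself and the step between it and succinate dehydrogenase. *LPD1*, the E3 gene, was at 0.22 (SE 0.10, adjusted p = 0.241) where labelled YPD and at 0.40 (SE 0.10, adjusted p = 0.0328, under 1.5-fold) where labelled YPGly. The succinyl-CoA ligase genes *LSC1* and *LSC2*, whose enzyme takes up the product of the complex, were at -0.15 and 0.03 where labelled YPD (adjusted p = 0.521 and 0.927). Where labelled YPGly they were at -0.03 and -0.26 (adjusted p = 0.924 and 0.225). Whether these changes differ from those of *KGD1* and *KGD2* was not tested. Over the whole list of 21 TCA cycle genes, the 3 genes here included, 10 were called higher where labelled YPD (1.48% of all genes) and 13 where labelled YPGly (1.61%), none lower, with medians of 0.57 and 0.93. Without the 3 genes the medians were 0.53 and 0.73.

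**Figure D4:**
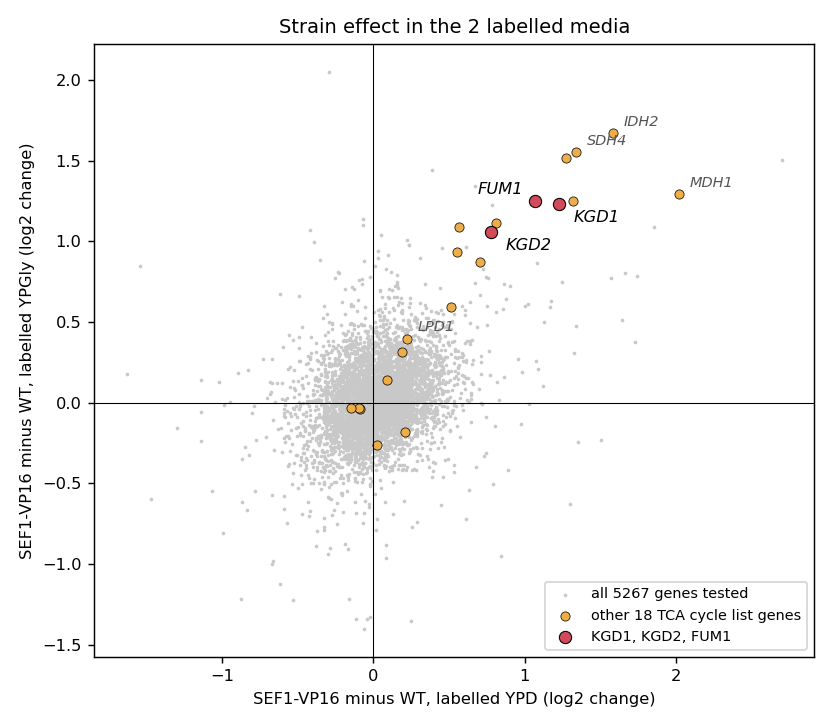
Log2 change between SEF1-VP16 and WT where labelled YPD (x axis) and where labelled YPGly (y axis) for the 5267 genes tested (grey), the other 18 TCA cycle list genes (yellow) and KGD1, KGD2 and FUM1 (red). The 3 genes lie at 0.78 to 1.22 on the x axis and 1.06 to 1.25 on the y axis. LPD1, which encodes the E3 subunit, lies at 0.22 and 0.40.

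Genes of other lipoate-dependent enzymes were looked at because these share E3 or the cofactor with the dehydrogenase. *LIP5*, which encodes lipoate synthase, was put on the same list. Of the 7 genes listed, *LPD1* and *LIP5* included, none was called higher in SEF1-VP16 in either labelled medium. This is near the share of all genes (1.48% and 1.61%), and the median changes were -0.16 and 0.07. *LIP5* was at 0.13 and 0.07 without a call. *PDA1* and *PDB1*, which encode the E1 subunits of pyruvate dehydrogenase, were at -0.16 each where labelled YPD and at 0.15 and 0.13 where labelled YPGly. *GCV2*, the glycine decarboxylase gene, was called lower where labelled YPD (-0.67, adjusted p = 0.00175) and was at -0.57 (adjusted p = 0.00586, under 1.5-fold) where labelled YPGly. *GCV1*, a further gene of the glycine cleavage system, passed the adjusted p where labelled YPD (-0.55, adjusted p = 0.0357) but was under 1.5-fold. A further list, named 2-oxoglutarate and fumarate use, held 11 genes of other enzymes and carriers that use, make or transport either compound. None of the 11 was called where labelled YPD. That is near the 2.13% of all genes called in either direction, and the list median was -0.24. *GDH3*, a NADP-dependent glutamate dehydrogenase gene (0.34, adjusted p = 0.0289), and *GLT1*, the glutamate synthase gene (-0.48, adjusted p = 0.0412), passed the adjusted p there but were under 1.5-fold. Where labelled YPGly 1 was called higher, while 1.61% of all genes were, and the list median was 0.13. This was *YHM2*, a mitochondrial carrier of citrate and 2-oxoglutarate (0.77, adjusted p = 0.0173). *GDH2*, the NAD-dependent glutamate dehydrogenase gene, was at 0.02 and -0.13, and *FRD1*, a fumarate reductase gene, at -0.33 and 0.30, neither passing the adjusted p.

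Between labelled media in WT the genes within these lists did not move as one. Log2 changes ran from -0.60 to 1.42 among the lipoate-dependent enzymes. Among the genes of 2-oxoglutarate and fumarate use they ran from -4.69 to 4.41. Of the 11 genes of adjoining steps, 4 were called lower and 1 higher in WT where labelled YPGly, with a median of -0.40, while 20.5% of all genes were called lower and 27.4% higher. *LSC2* (-0.76), *SDH2* (-0.92), *SDH3* (-0.76) and *LPD1* (-0.60) were the 4, and *MDH1* (0.62) the 1. *IDH1* and *IDH2*, which were called in both strain comparisons, were at 0.06 and 0.02 in WT (adjusted p = 0.763 and 0.889). Of the 8 non-fermentable carbon markers, none was called higher in SEF1-VP16 in either labelled medium, near the share of all genes (1.48% and 1.61%). Where labelled YPD all 8 changes were negative, from -0.82 to -0.08, and *ICL1* was called lower (-0.82, adjusted p = 0.0225). *PCK1* (-0.55, adjusted p = 0.0339) and *MLS1* (-0.51, adjusted p = 0.0327) passed the adjusted p there but were under 1.5-fold. So did *GUT1* (-0.57, adjusted p = 0.0104) and *GUT2* (-0.48, adjusted p = 0.01) where labelled YPGly. Changes there ran from -0.57 to 0.22. The part of the carbon state of the cultures in the medium differences of *KGD1*, *KGD2* and *FUM1* was not tested.

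**Figure D5:**
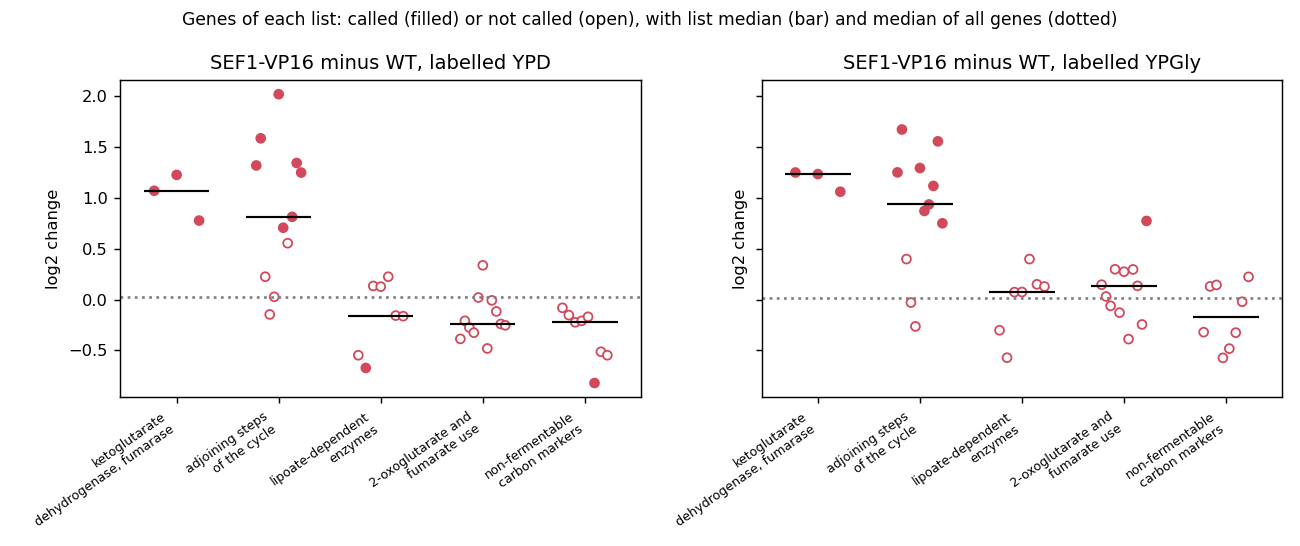
Log2 change between SEF1-VP16 and WT (y axis) of each gene in 5 lists (x axis), where labelled YPD (left) and where labelled YPGly (right). Filled points were called and open points were not, bars are list medians, and the dotted line is the median of all genes. KGD1, KGD2 and FUM1 are filled in both panels, while the lists of lipoate-dependent enzymes and of 2-oxoglutarate and fumarate use have medians between -0.24 and 0.13.

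Genes with the most similar pattern over the 16 arrays were listed for each gene by Pearson's r, as a description. The arrays share group, slide and scaling. For *KGD1* they were *SDH4* (r = 0.975), *ACO1*, the aconitase gene (0.974), and *SDH3* (0.970). For *FUM1* they were *SDH3* (0.981), *SDH2* (0.974) and *FMP41* (0.959). For *KGD2* none was a TCA cycle gene: *MDM20*, a subunit gene of an N-terminal acetyltransferase, had r = 0.975, SAKL0B04620g 0.968 and *AFG1*, which encodes a mitochondrial ATPase, 0.958. *MDM20*, SAKL0B04620g and *AFG1* were called lower where labelled YPGly in both strains, as *KGD2* was. In SEF1-VP16 against WT, SAKL0B04620g was called higher in both labelled media (0.90 where labelled YPD and 0.73 where labelled YPGly). *AFG1* was called higher only where labelled YPD (0.86) and *MDM20* in neither.

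After the mean of each labelled medium was subtracted, the 3 closest to *KGD1* were *IDH2* (0.985), *FUM1* (0.983) and *IDH1* (0.983), and those closest to *FUM1* were *ACO1* (0.988), *IDH2* (0.985) and *SDH3* (0.984). For *KGD2* they were then *SDH4* (0.967), *SIT1*, a siderophore transporter gene (0.963), and *SDH3* (0.956). *KGD1* and *KGD2* correlated at 0.818 over the 16 arrays, *KGD1* and *FUM1* at 0.953, and *KGD2* and *FUM1* at 0.923. Around the group means the 3 pairs correlated at 0.459, 0.742 and 0.15 in the same order, so *KGD2* varied least with *FUM1* among replicates.

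The genes next to the 3 were examined on the same arrays, taken as the nearest locus tag with a probe on either side. A locus without a probe would be passed over, so a gene taken this way need not adjoin the member. None of the 6 was called between strains in either labelled medium, where 2.13% and 2.3% of all genes were called in either direction, a share at which 0 of 6 is no result about these genes. Their log2 changes lay between -0.54 and 0.26 where labelled YPD (smallest adjusted p = 0.051) and between -0.21 and 0.32 where labelled YPGly (smallest adjusted p = 0.0732). *SLX4*, a DNA repair gene to which the study assigned the same Sef1 peak as to *KGD2*, was at 0.17 (adjusted p = 0.508) and 0.08 (adjusted p = 0.817). *EKI1*, an ethanolamine kinase gene on the other side of *KGD2*, was at 0.20 (adjusted p = 0.317) and 0.02 (adjusted p = 0.963). *AYR1* and *RPL9B* flank *KGD1*, and were at -0.36 and 0.26 where labelled YPD and at -0.21 and 0.32 where labelled YPGly. For *FUM1* the genes taken were SAKL0E00924g (0.10 and -0.12) and *PRB1*, SAKL0E01012g (-0.54 and -0.08).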

How the data were processed

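Total RNA of 16 cultures was reverse transcribed with anchored oligo(dT) primers and labelled with 1 dye by the authors, and custom Agilent arrays were extracted with Agilent Feature Extraction 10.5.1.1, per the submitters' processing notes. The deposited scanner files give an intensity per spot (processed signal after background subtraction, and median signals of spot and background). A further table deposited by the authors holds log2 values scaled to the 75th percentile of each array, whose columns differed from the log2 processed signal by 1 constant per array to within 1.74e-06. Its column medians lay between -1.48 and -1.27.

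Here log2 processed signal minus the 75th percentile of the 10620 gene probes was used. Outlier-marked spots (332 values in all) were set to missing, controls were left out, and the brighter of the probes of a gene was taken. Tested genes (5267 of 5316) had a probe well above background throughout 1 or more groups. limma 3.58.1 in R 4.3.3 fitted 4 group means, with Benjamini-Hochberg adjustment. The fit was tested on simulated data with 200 of 5267 genes changed: where labelled YPD 39 of 50 genes changed by 0.8 and 49 of 50 changed by 1.2 on the log2 scale were called, and where labelled YPGly 41 and 48. Alternatives were median centring, quantile normalization, normexp background correction (planned on mean signals, made on median signals), the dimmer probe or the mean of both, no filter on dim probes, outlier-marked spots kept, the deposited table, array weights, a replicate block, a separate fit, the methods' t-test, no fold minimum, and leaving out each array. The tests of within-array differences between labelled media were added after the data were seen. Names are those the study gives. Genes named are the 3 members, SEF1, genes of lists described, adjacent genes, and the 3 most similar genes by each of 2 measures. The members and lists were chosen with earlier results of these data known.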

Additional observations from a re-analysis of the deposited data

Results flagged for a closer look

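Among 44 groups of 4 values examined (8 probes of the 3 genes and *SEF1*, and the 3 within-array differences), 4 held a value far from the other 3, where chance gives about 1 in 20. The further probe of *FUM1* was at 0.81 in WT YPGly replicate 1, against 0.43 to 0.46 in the others. The further probe of *KGD1* was at 3.35 in SEF1-VP16 YPD replicate 3, against 3.48 to 3.50. The further probe of *KGD2* was at 3.70 in SEF1-VP16 YPD replicate 2, against 3.58 in the others. The *KGD1* minus *FUM1* difference was -0.078 in SEF1-VP16 YPD replicate 1, against -0.35 to -0.31.

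Of the 59 named genes, 1 had a strain effect that differed between labelled media by the interaction test, near the 1.14% of all genes called by it. This was *MDH1*, whose rise was smaller by 0.73 where labelled YPGly (log2 difference -0.73, SE 0.13, limma adjusted p = 0.0112).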

How the results depend on the processing

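The calls of *KGD1*, *KGD2* and *FUM1* as higher in SEF1-VP16 kept their direction under all alternatives. Leaving out an array aside, they were kept in 82 of 84 combinations of gene, labelled medium and setting. The exceptions, both where labelled YPD, were *FUM1* (1.07, adjusted p = 0.0624) and *KGD2* (0.78, adjusted p = 0.165) with the methods' t-test, its p-values adjusted by Benjamini-Hochberg. That test called 4 TCA cycle list genes where labelled YPD against 10, and 25 genes in all against 112. A separate fit to the 8 arrays called 57, and without the fold minimum 281 were called there, 348 where labelled YPGly (121 with it) and 3683 between media in SEF1-VP16 (2446 with it). Leaving out 1 array kept all strain calls, with *KGD1* at 1.15 to 1.31 where labelled YPD and 1.2 to 1.28 where labelled YPGly, *KGD2* at 0.70 to 0.90 and 1.03 to 1.1, and *FUM1* at 0.99 to 1.19 and 1.2 to 1.29.

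The medium change of *KGD1* passed the fold minimum with median centring (-0.64 in WT, -0.59 in SEF1-VP16) and, in SEF1-VP16, with quantile normalization (-0.65), normexp background correction (-0.60) and the dimmer probe (-0.61). Without a fold minimum -0.53 and -0.52 passed. Leaving out 1 array gave -0.59 to -0.48 in WT and -0.61 to -0.44 in SEF1-VP16. The interaction of *KGD1* was near 0 and changed sign with quantile normalization (-0.14), normexp (-0.062), the dimmer probe (-0.084) and the mean of both probes (-0.038), and lay between -0.081 and 0.084 with 1 array left out, with no call in any setting (lowest adjusted p = 0.659). That of all genes called 60, and 98 without WT YPD replicate 3, 96 without SEF1-VP16 YPD replicate 4, and 26 to 34 without any 1 of WT YPGly replicates 1, 2 and 3, SEF1-VP16 YPD replicate 3 and SEF1-VP16 YPGly replicates 3 and 4. The cause of these changes was not tested.

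With the dimmer probe the within-array medium differences were 0.85 and 0.42 (*KGD1* minus *KGD2*), 0.65 and 0.40 (*KGD1* minus *FUM1*, adjusted p = 0.0571 and 0.0857) and, in SEF1-VP16, -0.013 (*KGD2* minus *FUM1*), none with an adjusted p that passed. With the replicate block, *KGD1*, *KGD2* and *FUM1* changed by 1.22, 0.78 and 1.07 where labelled YPD and by 1.23, 1.06 and 1.25 where labelled YPGly, and it changed no call of the 3 genes. The block called 114 and 123 genes between strains against 112 and 121. Same-numbered replicates share that number and an array column of the slides, so the block is also one on column. Of 24 same-numbered pairs, 13 deviated from their group means with a correlation over 0.1, all 6 pairs of replicate 4 among them. The correlations of same-numbered pairs ran from -0.55 to 0.77, and those of the 72 other pairs from -0.62 to 0.77. In 20 of 48 cases the best match among the 4 arrays of another group had the same number, where chance gives 1 in 4.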
